A study of Mus musculus with 2 samples.

Results

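The junctions described here are 6410 splice junctions of mouse mammary gland that the deposited table codes A=0, chosen from 465423 rows. A splice junction is the gap in the genome that a spliced read spans, and so marks an intron. The rule took rows off the mitochondrial chromosome with code A=0, at least 5 reads under each of the 2 counts that the row names call R1 and R2, and a length from 100 nt to just under 100 kb. Another 90440 rows with code A=1 passed the same filters and served as the comparison. The values that chose the members (A, R1, R2 and length) are given below as description, without a test. What A, C, R1 and R2 stand for is not given in the sources used here, and the labels do not tie R1 or R2 to a replicate.

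Poly(A) RNA was sequenced in 2 stranded paired-end libraries, labelled biological replicates 1 and 2 of 1 group. The tissue was mammary gland from 8-week-old C57BL/6J littermates of both sexes, pooled, and C57BL/6J is an inbred strain. No treatment, allele or contrast is labelled, and the junction table is a single table for both libraries, so junctions are not replicates and no p-value is given. The expected counts over genes summed to 56323489 in replicate 1 and 42400470 in replicate 2, and R1 and R2 summed to 20289255 and 15601288 reads over all rows outside the mitochondrial chromosome. The label was checked against marker genes in TPM, given for replicate 1 and then replicate 2. Among adipocyte genes Adipoq stood at 1462 and 891 and Plin1 at 502 and 1290. Among fibroblast genes Dcn stood at 951 and 485 and Col1a1 at 242 and 341, so within both types the markers differed in direction. Luminal Krt8 stood at 154 and 282, basal Krt14 at 58.5 and 47.7 and the B cell gene Cd79a at 169 and 380. The skeletal muscle gene Ckm stood at 6496 and 2.03 TPM, Acta1 at 11332 and 5.93, and Myh4 at 391 and 0.18, so muscle RNA was high in replicate 1 and near 0 in replicate 2. In bulk tissue, fewer cells of a type and less RNA per cell cannot be told apart, for these genes and those below.

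The spliceosome removes an intron between a donor site at its 5′ end and an acceptor site at its 3′ end. Most introns begin with the letters GT and end with AG, and a minor share begins with GC, or begins with AT and ends with AC. Alternative splicing skips exons or moves to a donor or acceptor nearby, and a pair of acceptors 3 nt apart adds or leaves out a single codon.

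Sequences across exon joints are shown because 2 groups of members turn on a few letters at the joint. Each is the GENCODE M21 transcript's coding letters, 15 from the upstream exon and 15 from the downstream exon, 5′ to 3′. In the first set the member has the length of an annotated intron but lies some nt away from it, all with code C=0 except Mmp14. Capitals mark the letters between the annotated joint and the member's position. The member lay upstream of the annotated intron by 2 nt in Pkm, Acss2, Glul and Acacb, by 3 nt in Slc27a1 and Sod1, and by 1 nt in Nedd4. It lay downstream by 1 nt in Sdhd and Sf3b1, by 2 nt in C3 and Akap8l, and by 4 nt in Mmp14.
Pkm: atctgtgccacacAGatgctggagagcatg
Acss2: acaggcaaacctaAGggtgtggtgcacaca
Glul: accggaaacctgcAGagaccaacttgaggc
Acacb: gcagctggtccagAGataccgcagcgggac
Slc27a1: gggtggctgtgcCAGgagtggaggggaaag
Sod1: cacttcgagcagAAGgcaagcggtgaacca
Nedd4: ctctcggaggacgaGgtatgggagttttgc
Sdhd: cctgcacagtcactgGggccttggacaagt
Sf3b1: tgcgttaatggacagGgaccttgttcacag
C3: tatggctccacccagGCtaccttcatggta
Akap8l: ctgggacaaatagagGCtacgagaactatg
Mmp14: tccagcaactttatgGAAGcaagtcagggt

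In the second set the member shares its donor with an A=1 row, and its acceptor lies 3 nt downstream (4 nt in Plin4). Capitals mark the first letters of the downstream exon that the member leaves out. They read CAG in each of the 6 joints 3 nt apart and ACAG in Plin4, so all end in AG.
Cfd: gagcggctgtatgtgCAGcacagccccgag
Aes: aactccatcatccgaCAGcagctccaggct
Midn: acaacctgtcctgagCAGatggactgttct
Psap: atggacccctatgagCAGaatctggtccag
Sgta: gccacttccagcaagCAGgagatgccacag
Lep: gacatttcacacacgCAGtcggtatccgcc
Plin4: gaggccttccagatgACAGacatgaccatg

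Members were few among A=0 rows. They made up 2.11% of the 304393 A=0 rows, and outside the mitochondrial chromosome 88.8% of 303566 A=0 rows had R1 or R2 at 0, against 17.7% of A=1 rows. Of all rows passing the filters, 6.62% were members. They held 2.35% of R1 reads and 3.44% of R2 reads. A single junction in Cfd took much of this, and without it the shares were 1.67% and 2.07%. At the edge of the rule, 954 members had the lower of R1 and R2 at 5 (84.9% with C=1), and 1408 A=0 rows just outside had it at 4 (84.2% with C=1). The length limits left out 550 A=0 rows that were shorter and 571 that were longer.

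The members' lengths were spread more widely than those of A=1 rows. Their median was 1630 nt (quartiles 444 and 7049), against 1259 nt (469 and 3068). Junctions of 10000 nt or longer made up 20.7% of members and 7.85% of A=1 rows. The last length bin, from 63096 nt up, held 4.23% of members and 0.471% of A=1 rows. Part of the long end is 559 members with ends in 2 genes, described below. Their median length ran from 21418 nt to 53814 nt across the classes of shared ends. Members carried a median of 30 reads, R1 and R2 together, against 89, and 16.9% of them reached 100 reads, against 46.8% of A=1 rows.

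**Figure D1:**
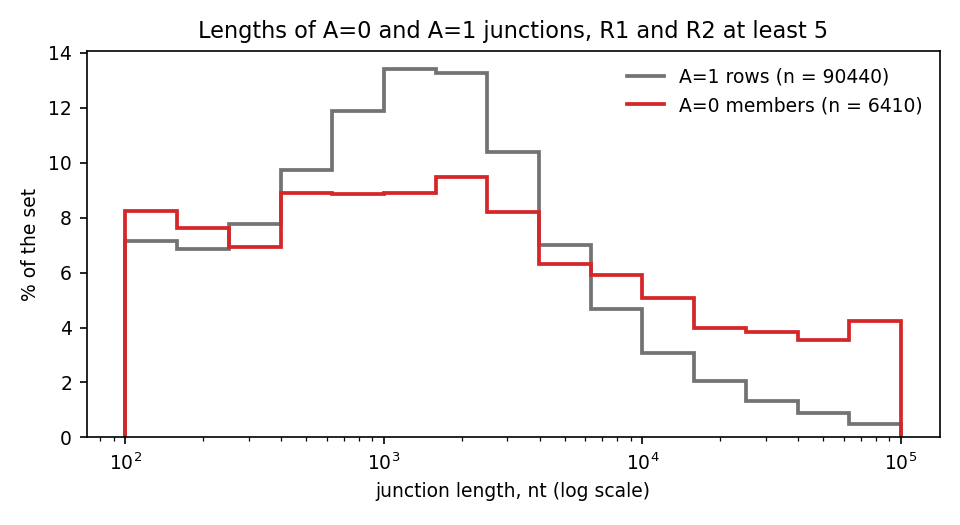
Share of each set (vertical axis, %) by junction length (horizontal axis, nt, log scale) for 6410 A=0 members and 90440 A=1 rows of the same filters. The A=1 rows peak between 1000 and 2511 nt, while the members form a flatter line and lie above the A=1 rows from 6310 nt on and also up to 250 nt.

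Scaled by the R1 and R2 totals, R1 and R2 differed by more than 2-fold at 2153 members (33.6%), beside 34.5% of all rows of the filters. The share among members was thus near that of all rows passing the filters. The median log2 of scaled R2 over R1 was 0.23 for members and -0.18 for A=1 rows. The 3 widest gaps toward R1 among members of 100 reads or more lay in muscle genes. A junction from Myh2 to Myh4, 2 myosin heavy chain genes, had 2467 reads under R1 and 6 under R2. Sgca, a sarcoglycan gene, had a junction with 1061 and 5 reads. The enolase gene Eno3 had a junction with 887 and 6 reads. Muscle genes differed between the libraries as given above, and the part of this in the gaps was not tested.

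**Figure D2:**
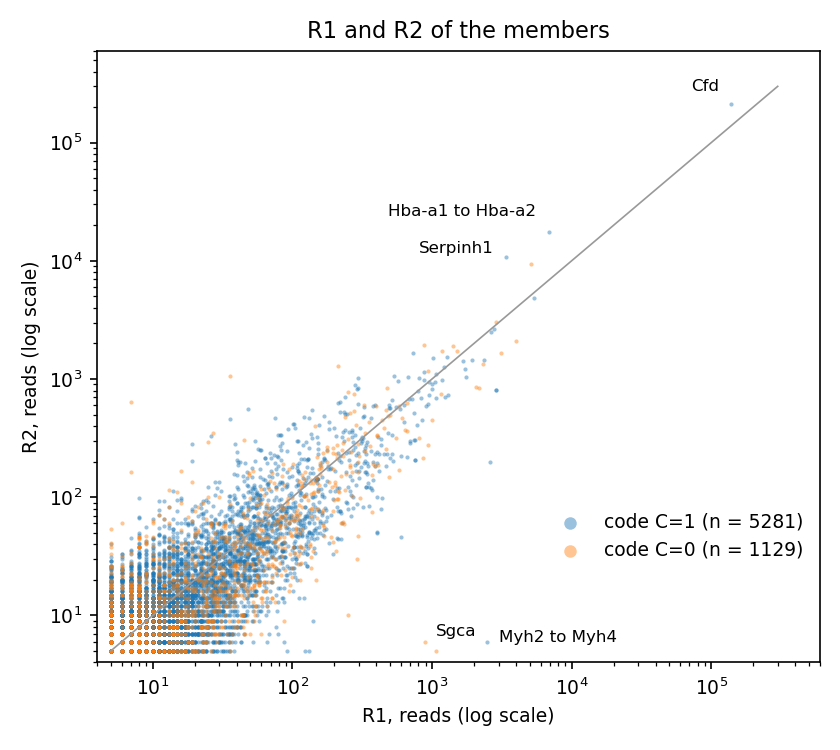
R1 (horizontal) and R2 (vertical) in reads, both on log scales, for each member, coloured by code C. The line marks equal values. Cfd stands alone at the upper right, and Myh2 to Myh4 and Sgca lie far below the line.

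Code C, which the rule did not use, was 1 in 82.4% of members and in 99.7% of A=1 rows. The 1129 members with C=0 had more reads than those with C=1, a median of 40 against 29, and were shorter, a median of 1125 nt against 1774 nt.

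Ends were compared on the table's own coordinates (mm9) and strand, against all A=1 rows off the mitochondrial chromosome. Both ends were also ends of A=1 rows in 987 members (15.4%), which thus joined a known donor to a known acceptor in a combination coded A=0. Here "known" means held by an A=1 row. In 1596 members (24.9%) only the donor was shared, and in 1490 members (23.2%) only the acceptor. Neither end was shared in 2337 members (36.5%). Among A=1 rows of the same filters, 86.1% shared neither end with another A=1 row and 2.60% shared both. Code C divided the classes: of the 1129 members with C=0, 1056 (93.5%) shared neither end and 0 shared both. With ends counted only from A=1 rows of the same filters, neither end was shared in 43.4%.

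**Figure D3:**
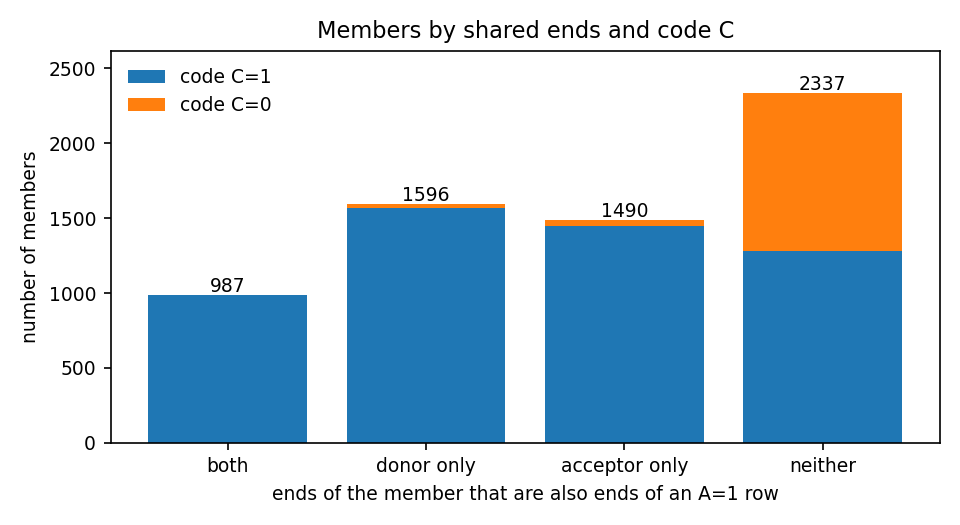
Number of members (vertical axis) by which of their ends are also ends of an A=1 row, split by code C. Nearly all members with C=0 stand in the class with neither end, where they make up 1056 of 2337.

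The classes differed in length and reads. Members with both ends shared had a median length of 10941 nt, and 51.9% were 10000 nt or longer. Medians were 975.5 nt with the donor alone shared, 1497 nt with the acceptor alone and 1306 nt with neither. Median reads were 35, 26, 27 and 34 in that order. The class with both ends shared mixes 652 members in 1 gene, median 4499.5 nt, and 333 with ends in 2 genes, median 53814 nt.

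Members were then set against introns of GENCODE M21 by matching lengths and spacings between neighbouring junctions, with no coordinate carried between builds. Of the members 1777 (27.7%) coincided with an annotated M21 intron, against 99.0% of A=1 rows. Another 984 (15.4%) joined annotated ends not paired in any M21 transcript, and 2043 (31.9%) had 1 annotated end. The 561 displaced members (8.75%) had exactly an annotated intron's length but lay up to 7 nt from it. No end came near an annotated one in 789 (12.3%). The remainder had ends near annotated ones with another length (110), 1 end near (75) or could not be placed (71).

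Of the displaced members 529 had C=0, which is 46.9% of all members with that code, and 32 had C=1. The undisplaced intron stood in the table as an A=1 row for only 4 of the 561. The member's share of the reads at its own donor position was 100% at C3 and Pkm and 99.9% at Sdhd. In the C=0 rows the displacement was within 2 nt in 427 (80.7%) and within 4 nt in 517 (97.7%). The member lay 2 nt upstream in 199, 1 nt downstream in 146, 3 nt upstream in 58, 1 nt upstream in 43 and 2 nt downstream in 39. Direction went with strand in the displaced C=0 rows named here. Plus-strand rows lay upstream and minus-strand rows downstream, so each sat at the lower coordinate. Strand was not counted over all 529.

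**Figure D4:**
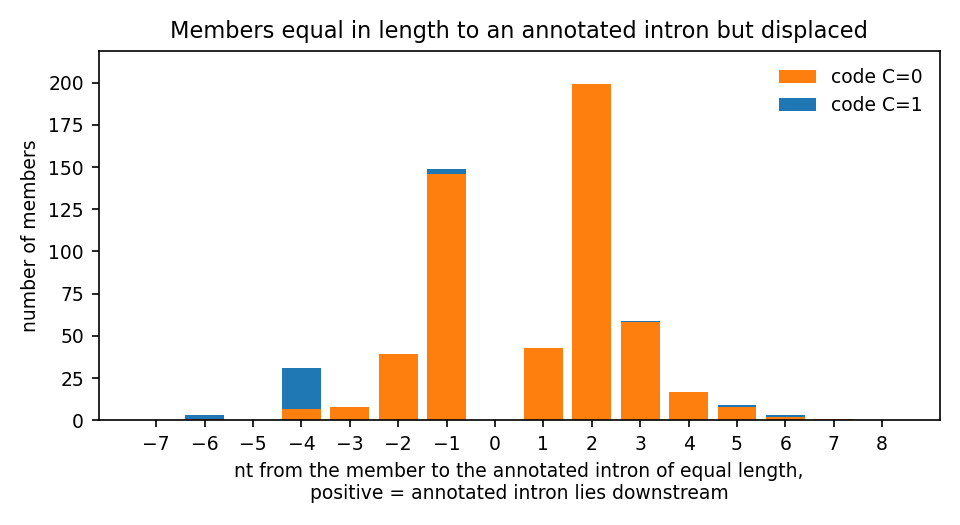
Number of displaced members (vertical axis) by the nt from the member to the annotated intron of equal length, positive where the annotated intron lies downstream, coloured by code C. The bars at 2 (199 members) and -1 (146 members with C=0) are the tallest, and the C=1 rows stand mostly at -4. Downstream is by the direction of transcription, so the sign depends on strand.

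The letters at these joints are given as description and are not separate support. Where the same reads fit both positions, the letters between them must repeat at the other edge of the intron. An annotated intron ending in AG then gives an upstream exon ending in AG. One beginning with G gives a downstream exon beginning with G. Whether the reads fit both positions was not tested. Of the 199 members 2 nt upstream, the upstream exon ended in AG in 197 (99.0%), against 55.1% of 89575 A=1 rows read the same way. Of 58 members 3 nt upstream, 57 had AG there, and 50 had CAG. For the 146 members 1 nt downstream, the downstream exon began with G in 136 (93.2%), against 49.4% of A=1 rows. At 2 nt downstream the exon began with GC in 29 of 39, with AT in 4 and with GT in 3. Of 7 members with C=0 that lay 4 nt downstream, 5 had an exon beginning ATAT. With C=1, 24 members lay 4 nt downstream, and the exon's first 4 letters ended in AG in all 24, against 5.24% of A=1 rows. They began with GT in 4, or 16.7% against 18.4%. The AG ends the member's own intron, while the A=1 share is of exon letters and not of intron ends. The letters of the annotated introns themselves were not used here, since no mm9 genome was at hand.

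Displaced members included some with the most reads of all. Slc25a3, the mitochondrial phosphate carrier, had 5090 reads under R1 and 9343 under R2 (chr10:90586451-90586659, minus strand). Dazap2 had 4013 and 2096 reads (chr15:100446154-100447341), and the complement gene C3 had 2881 and 3030 (chr17:57349745-57350992, minus strand). Sdhd, a subunit of succinate dehydrogenase, had 3114 and 1652 (chr9:50405355-50406864, minus strand). Pyruvate kinase Pkm had 2325 and 1342 reads (chr9:59519531-59519725), acetyl-CoA synthetase Acss2 had 2175 and 836 (chr2:155381726-155382066), and glutamine synthetase Glul had 2077 and 860 (chr1:155751827-155753476). The fatty acid transporter Slc27a1 had 1178 and 1728 (chr8:74108903-74109241). The superoxide dismutase gene Sod1 had 932 and 1173 (chr16:90221172-90223021) and the ubiquitin ligase gene Nedd4 had 880 and 1940 (chr9:72510420-72517757). Among displaced rows with C=1 the matrix metalloproteinase gene Mmp14 led, with 1240 and 704 (chr14:55056604-55057505).

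Of the 1596 members that shared the donor alone, 29.4% had their acceptor within 12 nt of an A=1 acceptor. In all, 953 (59.7%) had it within 100 nt, and in 493 of the 953 (51.7%) the distance was a multiple of 3. This share came mostly from the distance of 3 nt. Multiples of 3 were 263 of 284 at 1 to 3 nt and, since 4 is not a multiple of 3, 0 of 73 at 4 nt. They made up 36.3% at 5 to 12 nt and 39.1% at 13 to 100 nt. The acceptor lay 3 nt downstream in 188 and 3 nt upstream in 75, 4 nt downstream in 66 and 5 nt downstream in 44. Among those not annotated in M21, 48.0% of 686 were multiples of 3. The joint's letters were read for 185 of the 188 members at 3 nt downstream, and the letters left out ended in AG in all 185, against 5.04% of A=1 rows. These letters end the member's own intron, so AG there describes its acceptor. The A=1 share is of exon letters and not of intron ends. At 4 nt downstream AG stood in the matching place in 64 of 64 read, and at 5 nt in 41 of 42.

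**Figure D5:**
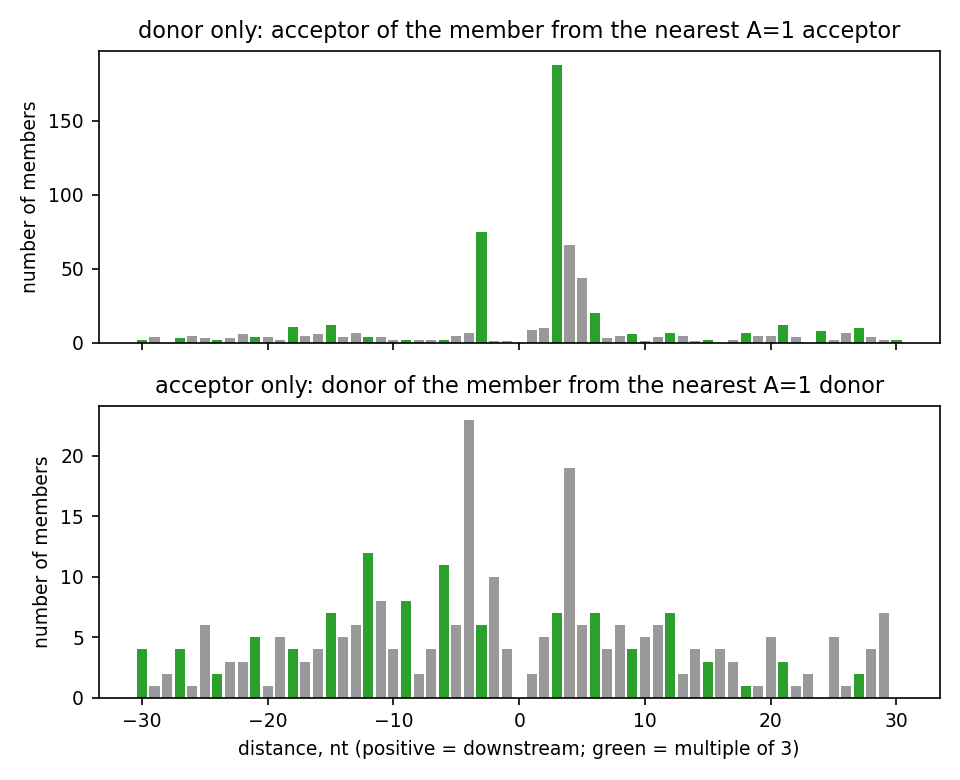
Number of members (vertical axis) by the distance in nt of the unshared end from the nearest A=1 end of its kind, positive downstream, with multiples of 3 in green. Acceptors (upper panel) pile up at 3 nt, with 188 members downstream and 75 upstream, while donors (lower panel) are highest at -4 and 4 nt, with 23 and 19 members.

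The member with most reads was of this kind. In Cfd, which encodes the adipose serine protease adipsin, the member (chr10:79353726-79354203, 478 nt) had 139545 reads under R1 and 213090 under R2. The A=1 row of the same donor, 475 nt long, had 96094 and 183446. The member was the higher of the pair under both counts and took 55.7% of the reads at the donor (exact Clopper-Pearson 95% interval 55.6% to 55.8%, for counting error only). The letters that the member leaves out are the CAG shown above. Cfd stood at 13596 and 29051 TPM in replicates 1 and 2. A second Cfd row, 3 nt upstream of the member at both ends and also 478 nt long, had 529 and 201 reads and took 0.260% of the reads at its acceptor.

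The balance between neighbouring acceptors varied widely from gene to gene. The member held most reads at the donor in Sgta, a co-chaperone, with 221 and 522 reads against 63 and 159 for the A=1 row, a share of 77.0% (interval 74.2% to 79.6%). In Pxk, which encodes a PX domain protein with a kinase-like region, the share was 55.2% (52.0% to 58.4%), from 272 and 250 reads. Fau, the ribosomal protein S30 fusion gene, had 737 and 1646 reads against 1613 and 1036. Here the A=1 row was higher under R1 and the member under R2, and the share over both was 46.8% (45.4% to 48.2%). Midn had 239 and 711 reads against 549 and 1409, or 32.7% (31.0% to 34.4%), and the RNA-binding protein gene Pcbp2 had a share of 30.4% (28.2% to 32.6%). Lep, which encodes the adipocyte hormone leptin, had 500 and 213 reads against 2049 and 911 (chr6:29019096-29020825), or 19.4% (18.1% to 20.7%). Minor acceptors stood in Psap, the saposin precursor, with 597 and 223 reads against 7334 and 3310 (7.15%), and in the co-repressor gene Aes, with 499 and 565 against 6483 and 8044 (6.82%). Plin4, a lipid droplet coat gene, used its acceptor 4 nt downstream in 201 and 167 reads against 1404 and 1721, or 10.2%.

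Farther acceptors were also used. In Prpf19, which encodes a spliceosome-associated ubiquitin ligase, the acceptor 57 nt downstream had 1761 and 1046 reads (chr19:10972384-10973472) and 87.0% (85.8% to 88.1%) of the reads at the donor. The A=1 row beside it had 277 and 135. In Adrb3, the adipocyte beta-adrenergic receptor gene, an acceptor 87 nt downstream of the nearest A=1 acceptor had 873 and 1146 reads (chr8:28336855-28337197, minus strand) and 85.0% (83.5% to 86.4%). Mlf2 and Atxn2l, with acceptors 21 and 18 nt downstream, had 97.1% and 77.9%. These are exceptions in the class. The median share was 9.94% (quartiles 3.60% and 26.9%), and 175 of 1596 members (11.0%) held over 50% of the reads at their donor. The median was 16.2% with a read minimum of 10 and 5.10% with 2.

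Donors followed another pattern. Of the 1490 members that shared the acceptor alone, 508 (34.1%) had their donor within 100 nt of an A=1 donor, and 33.3% of those distances were multiples of 3. The commonest distances were 4 nt upstream, in 23 members, and 4 nt downstream, in 19. Of 21 read at 4 nt upstream, the upstream exon had GT at the start of its last 4 letters in 14, against 1.58% of A=1 rows. All 11 at 6 nt upstream had GT at the start of its last 6 letters, against 5.08%. At both distances these letters begin the member's own intron, while the A=1 shares are of exon letters. Examples at 6 nt upstream are the RNA helicase gene Ddx17, with 172 and 205 reads and 57.3% (53.4% to 61.1%) of the reads at the acceptor, and the adenylate cyclase gene Adcy6, with 115 and 58 reads and 98.9%. Serping1, the C1 inhibitor gene, had a donor 5 nt downstream with 74 and 81 reads and 4.55%. The lipid droplet gene Plin1 had a donor 56 nt upstream of the nearest A=1 donor, with 1189 and 980 reads (chr7:86877042-86877627, minus strand) and 81.6% (80.1% to 83.1%), beside 256 and 208 for the A=1 row. In Ndrg2 a donor 601 nt upstream had 2622 and 199 reads and 27.6% (26.7% to 28.4%), beside 5047 and 2299. Here R1 led R2 by far more in the member than in the A=1 row. The highest shares of one-ended members with at least 50 reads were in Qsox1 at 99.9%, Adcy6 at 98.9% and Ablim3 at 98.5%. The class median was 10.7% (quartiles 3.62% and 33.3%), and 214 members (14.4%) held over 50%. With a read minimum of 10 the median was 19.4%, and with 2 it was 5.88%.

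Members with both ends shared fell into 2 groups. Both ends lay in a single gene in 652, and the ends lay in 2 different genes in 333. Of the 652, 575 spanned the leading A=1 junction at each end, as a skipped exon would. In 437 of these a single segment of at most 1000 nt, with no A=1 junction inside, lay between the inner ends. Its median length was 115 nt, and 183 segments (41.9%) were multiples of 3. The skipping share, the member's reads over their sum with the mean of the leading A=1 junctions at its ends, had a median of 9.05% and passed 50% in 49.

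Serpinh1, the collagen chaperone HSP47, gave the highest count: its junction had 3380 and 10689 reads (chr7:106497975-106501562, minus strand) and passed over a segment of 44 nt at a skipping share of 99.2%. The A=1 row at the same donor had 47 and 108. Ppfia1 skipped 63 nt at 96.9%, the kinesin gene Kif21b 39 nt at 81.6% and the cytokine receptor gene Il27ra 158 nt at 71.4%. Intermediate shares stood in the amyloid precursor gene App, with 126 and 292 reads over 57 nt (36.0%), and in Ptprc. Ptprc encodes the leukocyte phosphatase CD45, known for alternative exons, and its member passed over 141 nt with 220 and 643 reads at 31.1%. The splicing regulator gene Mbnl1 skipped 36 nt with 344 and 156 reads at 23.7%. Cfd stood at 0.209% and Ifi27l2a at 0.578%. Shares this low can pass the read minimum only in abundant genes, so their place there follows from the rule.

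Joins between 2 genes were common among members and almost absent from A=1 rows. The ends lay in 2 genes in 559 members (8.72%), of any class, and in 9 A=1 rows. In 381 of the 559 the symbols agreed in their first 3 letters, among 196 of 284 pairs of genes. This rule takes in Ighj4 and Ighm but leaves out C4a and C4b, so 381 is not a count of joins between gene copies. Of the 559, 64 had an end in an immunoglobulin or T cell receptor gene. Some of these, such as Ighj4 to Ighm, run from a J segment to a constant gene and are described below. Whether their reads fit several places was not tested. Most alike pairs named here are neighbouring copies of a gene family. Their reads can come from either copy. How reads that fit several places were counted is unstated. The values of joins between copies are thus uncertain and cannot be assigned to a gene.

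The globin pair shows the pattern. The junction from the donor of Hba-a1 to the acceptor of Hba-a2 (chr11:32184129-32197079), the alpha globin genes of red cells, had 6885 reads under R1 and 17409 under R2. The local junction of 134 nt at the donor had 7037 and 17663, and that at the acceptor 6878 and 17396. All 3 rows thus had nearly the same reads. At the other intron of the pair, the join had 1024 and 1508, beside 1024 and 1508 at the donor and 1025 and 1512 at the acceptor. The join from H2-Q5 to H2-Q7, class I histocompatibility genes, had 2640 and 2512 (chr17:35534746-35580293). Its local rows had 2778 and 2666, coded A=0, and 2702 and 2551, coded A=1. From Ly6c1 to Ly6a, surface antigen genes, the join had 2893 and 804, beside 2894 and 804 at the local Ly6a row, also A=0, and 2334 and 693 at the local Ly6c1 row, coded A=1. From Tnxb to Tnxa, tenascin genes, it had 946 and 948, beside 944 and 948 at the donor and 400 and 399 at the acceptor. The complement genes C4a and C4b were joined by 26 members with 11306 reads in all. The member from the alpha tubulin gene Tuba1a to Tuba1b had 5422 and 4871 reads (chr15:98763272-98781899, minus strand), beside 5348 and 4939 at the donor and 5750 and 5202 at the acceptor. It is not among the 559, since both ends also lie in 1 M21 gene, Gm49450.

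Other pairs were unequal. From Lyz1 to Lyz2, the lysozyme genes, the join had 2371 and 1442 reads, the Lyz2 row at its acceptor 4445 and 2596, and the Lyz1 row at its donor 672 and 316. From Scd3 to Scd2, stearoyl-CoA desaturase genes, it had 1273 and 1524 against 1587 and 1824 at the acceptor and 23 and 8 at the donor, where the join held 98.8% of reads. Rows with at least 100 reads were searched for another row at the same end within 2% in both R1 and R2. Such a row was found for 68 of 197 joins between 2 genes (34.5%) and 22 of 884 other members (2.49%). For A=1 rows it was 93 of 42304 (0.220%). A match needs another row of at least 100 reads at the same end. Of all A=1 rows of the filters, 86.1% shared neither end with another A=1 row, so the sets are not alike in this.

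Members that shared neither end and had C=1 numbered 1281. Of these, 595 (46.4%) coincided with M21 introns and 442 (34.5%) had no end near an annotated one. Introns of antigen receptor genes stood out by count. An end lay in an immunoglobulin or T cell receptor gene in 130 members (2.03%), against 71 A=1 rows (0.0785%), and 119 of the 130 shared neither end. B and T cells rearrange V, D and J segments in their DNA, and splicing then joins the J segment to a constant gene. By the type of gene at each end, the largest kinds were immunoglobulin V at both ends (34 members), T cell receptor J to constant (23) and immunoglobulin J to constant (19). Both ends lay in the same immunoglobulin V gene in 23 members, so the 34 are not a count of joins between V segments.

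The immunoglobulin mu constant gene Ighm had 2 introns among the members, with 1723 and 1207 reads (chr12:114657046-114657163, minus strand) and 1044 and 939 (chr12:114657280-114659139). Trac, the T cell receptor alpha constant gene, had one with 802 and 1011. J segments divided the reads at a shared constant acceptor. At Ighm, Ighj4 had 795 and 787 reads, a share of 24.2%, Ighj2 683 and 679 (20.9%), Ighj3 515 and 664 (18.1%) and Ighj1 368 and 472 (12.9%). A donor in no gene had 392 and 598 reads at the same acceptor (15.2%), so J segments did not hold all reads there. At the kappa constant gene Igkc, Igkj1 had 1001 and 828 reads (38.1%), Igkj5 835 and 687 (31.7%) and Igkj2 518 and 334 (17.8%). The 2 longest members with a gene at both ends ran from J segments to the gamma constant gene Ighg1, Ighj1 at 99257 nt with 17 and 37 reads and Ighj2 at 98944 nt with 308 and 309. Those lengths are distances on the mm9 reference, and the rearranged DNA of the B cells was not read. The third longest member, 98841 nt on chromosome 19, had no gene at either end, C=0, and 5 and 19 reads. The shortest members, all 100 nt, lay in Rabggta, Lyl1 and Osbpl9, and those of Rabggta and Osbpl9 were displaced rows with C=0.

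Among the 1056 members with C=0 and neither end shared, 528 were displaced copies of an annotated intron and 339 had no end near one. The latter had a median of 25 reads, against 75.5 for the displaced. In some, R2 far exceeded R1: a row of 80538 nt on chromosome 16 had 7 and 642 reads, and one of 23669 nt on chromosome 12 had 36 and 1070. Rows ending in Gm42418 on chromosome 17 had 27 and 350 reads and 25 and 292, and this gene stood at 1104 and 13706 TPM in replicates 1 and 2. Fasn, the fatty acid synthase gene at 10582 and 16923 TPM, held such rows too. The leading one had 130 and 95 reads over 392 nt (chr11:120675956-120676347, minus strand), and a second of the same length lay 6 nt from it with 99 and 70.

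In 5298 members an M21 gene covered both ends, and these were assigned to 3105 genes. Where several genes did, the one with the highest mean TPM was taken, for members and A=1 rows alike. Level thus took part in the choice of gene. Of the 3105 genes 2046 held 1 member and 128 held 5 or more. Among 12338 genes with an A=1 row of the filters, 23.1% held a member. This share rose with the gene's level: it was 10.4% under 10 TPM, 27.6% from 10 to 100 TPM, 46.3% from 100 to 1000 TPM and 63.0% above. Median levels were 28.1 and 34.0 TPM for genes with a member and 11.7 and 11.7 TPM for other genes with A=1 rows. Depth per gene therefore moves with the counts by gene list that follow, and its part was not tested.

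By list, the fat genes held members most often: 11 of 15 white adipocyte genes with A=1 rows and 13 of 16 lipogenesis genes. Examples are Plin1 and Plin4 above, the carbonic anhydrase gene Car3, with 418 and 168 reads at a share of 0.695%, and Acacb, the acetyl-CoA carboxylase of mitochondria, with a displaced row of 503 and 495. Of 26 fibroblast and matrix genes 17 held one. Among them a C=0 row in Col1a2, of collagen I, had 1406 and 1918 reads (chr6:4455909-4458927), and a member in the fibronectin gene Fn1 had 139 and 100. Of 15 lymphocyte genes 9 held one, as did 19 of 46 splicing factor genes, among them Srsf7, with 172 and 126 reads at 59.8% of its acceptor, and Srrm2. The counts were 11 of 24 ribosomal protein genes, 6 of 12 long non-coding RNA genes and 4 of 11 endothelial genes. They were 3 of 16 luminal genes (Spint2, Foxa1 and Krt18), 2 of 12 basal genes (Trp63 and Mylk) and 2 of 10 macrophage genes, or 18.8%, 16.7% and 20%, beside the 23.1% of all genes with an A=1 row. Genes of the matrix list also had more A=1 junctions, a median of 33, against 6, 6.5 and 4.5 in those 3 lists. Of 13 skeletal muscle genes only 6 had an A=1 row of the filters, and none of the 6 held a member. The filters ask for reads under both R1 and R2, and muscle RNA was near 0 in one library, so this count says little.

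Dmbt1, a secreted scavenger receptor with tandem repeats, held most members, 38, beside 44 A=1 rows. Of the 38, 35 shared both ends and 33 joined annotated ends that M21 does not pair. The leading ones had 757 and 307 reads (11410 nt) and 744 and 307 (7031 nt), nearly the same reads at 1 acceptor. Cfd held 32, of which 19 had C=0, beside 3 A=1 rows. Firre, a long non-coding RNA gene of the X chromosome built of repeats, held 27, of which 24 shared neither end, at a level of 5.39 and 4.55 TPM. The gene 5430419D17Rik held 23, all sharing neither end, and 21 of them are M21 introns. Next, at 16 each, came Slc27a1, Fasn and Scd1, with 4, 10 and 13 members of C=0.

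The deposited contigs are stretches with reads on the same build. They come from the same series and are not independent of the junction rows. A member's own spliced reads can cover the exon bases beside its ends, so the exon shares are description only. The exon bases beside both ends lay in contigs of the same strand for 92.8% of members and 99.6% of A=1 rows. The share was 86.6% for members with both ends shared and 99.3% for the displaced. The intron base 10 nt inside the donor lay in a contig for 80.6% of members and 70.1% of A=1 rows. For members sharing the donor alone it was 90.8%. Genes with a member also had higher median levels, as given above, and the part of level in these intron shares was not tested. By chromosome, members per 100 A=1 rows ranged from 4.23 on chromosome 18 to 12.9 on chromosome 17, where the H2, C4 and Tnx pairs lie, with 9.88 on chromosome 12, which holds the immunoglobulin heavy chain genes.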

How the data were processed

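The authors deposited 1 junction table and 1 contig table for the series on mm9 and gene tables for each library on mm10, per the text notes beside the files. Neither the aligner nor the way junctions were called is stated in these sources. The deposited junction counts are whole reads per row, equal to R1 plus R2 in every row. The remaining columns of both tables hold deposited scores whose meaning is not given, and the contigs' deposited signal was not read. Gene levels are TPM and FPKM as the authors deposited them, and the deposited expected counts gave depth only.

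Junction length is end minus start, which matched annotated intron lengths, and printed positions count from 1. Ends were matched on position and strand. Donor means the 5′ end by strand. No mm9 genome or annotation was used. Genes and introns of GENCODE M21 (mm10) were tied to rows by spacing alone: 56105 A=1 rows longer than 200 nt whose length 1 annotated intron of the chromosome has served as anchors, and at least 10 of the 20 nearest had to give the same spacing. Where several genes covered a position, the one with the highest mean TPM was named. Displacements were searched to 15 nt. Sequences are GENCODE M21 transcript letters. The matching was tested on planted junctions. Joins between genes were called alike from 3 letters of the symbols.

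The named junctions are the 10 with most reads, the 3 highest of each class of shared ends, the 3 longest and shortest, the 3 with the highest share among those of 50 reads or more, leading genes, and up to 4 examples per gene list. Examples of displaced rows, short distances, skips, joins of 2 genes, antigen receptors and gaps between R1 and R2, chosen by reads or by the size of the gap, were added after their values were seen. The members and lists were chosen with earlier results of these data known. Both libraries form 1 group, so nothing was tested. Analyses used Python 3.11.15, pandas 2.3.3, numpy 2.4.6 and scipy 1.17.1.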

Additional observations from a re-analysis of the deposited data

How the results depend on the processing

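With ends taken only from A=1 rows of the same filters, the shares of members holding both, the donor alone, the acceptor alone or neither end were 11.2%, 23.7%, 21.7% and 43.4%. With R1 and R2 at 10 or more they were 16.9%, 22.7%, 21.5% and 38.9%. The share with both ends was 13.96% at a minimum of 2, and with the eighth column's score under 0.1 it was 13.7%, with neither end at 38.8%. Matching ends without strand changed none of the 4 shares.

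At a minimum of 10 the median length of A=1 rows was 1179 nt, and C=1 held for 80.9% of members. At a minimum of 2 the median lengths were 1521 nt (members) and 1341 nt (A=1 rows). Without length limits the A=1 median was 1107 nt. Members stayed longer than A=1 rows by the median in each of these settings. Median reads were 15 and 52 by R1 alone and 13 and 34 by R2 alone, members first.

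The median read share at the donor or acceptor was 16.2% and 19.4% at a minimum of 10, and 5.10% and 5.88% at a minimum of 2, so it depends on the read minimum by over 1.5 times. Of donor-sharing members, 56.6% had an acceptor within 100 nt with the filtered A=1 rows and 55.9% at a minimum of 2. Multiples of 3 made up 60.1% at a minimum of 10 and 43.9% at 2, and 38.6% for donors at 10.

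Averaged over both libraries, the median level was 32.5 TPM for genes with a member and 12.2 TPM without. Leaving out each replicate in turn gave 28.1 to 34.0 TPM and 11.66 to 11.7 TPM, and FPKM gave 23.9 and 8.98. Without the Cfd member, an alternative chosen after seeing the data, members held 1.67% of R1 and 2.07% of R2. No result reversed, since none has a direction under test. No paired analysis was possible because both libraries form 1 group. Few reads limit the members: those at the read minimum carry a median of 14.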
